A study of Selenicereus undatus with 4 samples.

Results

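The circadian clock associated 1 (CCA1) and REVEILLE (RVE) genes encode a family of single-repeat MYB transcription factors of the plant clock, and 5 unigenes of pitaya carried an annotation of this family. They were taken by their annotation, as circadian clock associated1 or as protein REVEILLE 1, 6 or 8, from the 11051 unigenes that the authors called differentially expressed between stages NL and L2. A unigene here is 1 assembled transcript sequence. The plants were 1-year-old 'Jindu No.1' red-fleshed pitaya, and the tissue was that around the thorn seat of the stem. The 3 NL libraries came from control plants that received no supplementary light and did not flower. The 3 L2 libraries came from plants lit at night in winter and sampled 1 week after the bud stage. Each replicate mixed 4 plants, so the spread between libraries is that between pools of plants.

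In Arabidopsis, CCA1 accumulates around dawn and represses genes of the evening, among them that of TOC1, and the pseudo-response regulators in turn repress CCA1. RVE8 and its close relatives RVE4 and RVE6 bind the same evening element but activate evening genes, together with LNK proteins, while RVE1 acts mainly as an output that links the clock to auxin. Transcripts of these genes rise and fall through the day. The hour at which tissue was taken is not given in the sources used here, so whether the stages were sampled at the same phase cannot be told from them. NL and L2 also differ at once in light and in bud development, and the contributions of these cannot be told apart.

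In L2 the expression of all 5 genes was lower than in NL, by between 4.21-fold (RVE1) and 10.3-fold (RVE8) in mean RPKM, the number of reads normalized to unigene length and library size. In limma all 5 passed an adjusted p of 0.05, as did 99.3% of the listed genes, 36.3% of the list being lower and 63% higher in L2. For each of the 5, every NL library lay above every L2 library, a separation in this direction that 35.5% of the listed genes showed. The list holds genes called on these same libraries, so neither count is independent evidence. Because these are bulk samples, fewer cells that express a gene and less RNA per cell cannot be told apart. The 5 unigenes are called CCA1a, CCA1b, RVE8, RVE6 and RVE1 below.

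**Figure D1:**
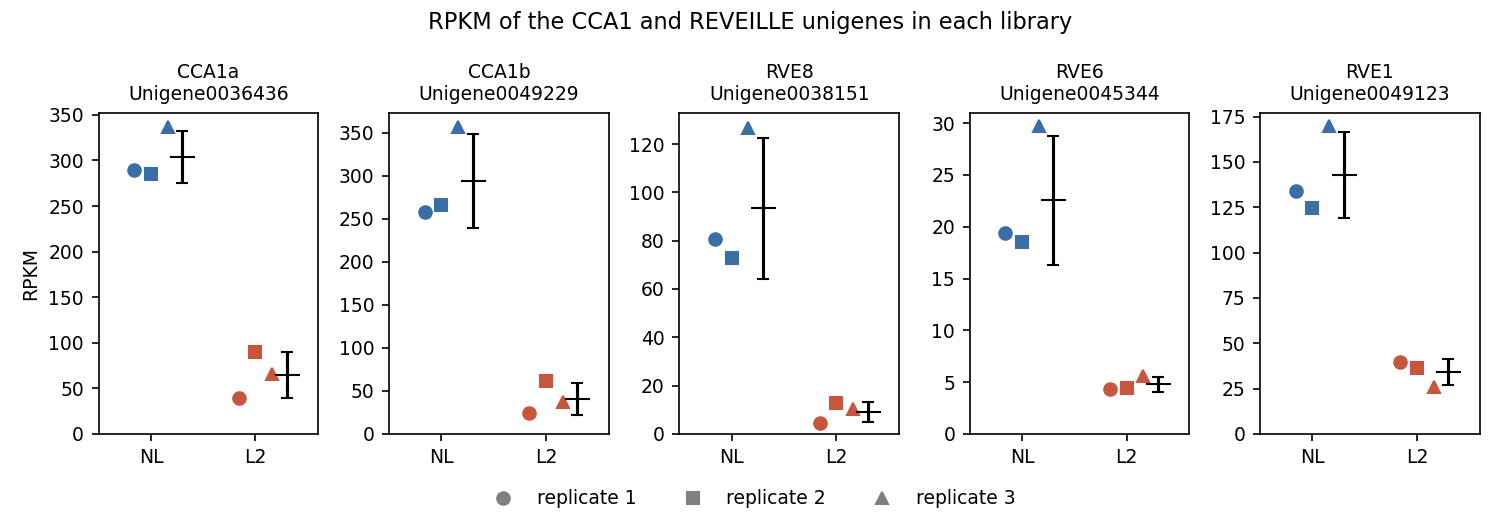
RPKM of each of the 5 genes in the 3 NL (blue) and 3 L2 (red) libraries, each panel with its own linear axis from 0. The symbol gives the replicate number, and the black bars give mean ± SD (n = 3). In every panel all NL points lie above all L2 points, and NL replicate 3 is the highest NL point.

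CCA1a and CCA1b share the CCA1 annotation, from a match to Mesembryanthemum crystallinum, and both are placed in the KEGG pathway circadian rhythm - plant. The deposited table gives both the symbol LHY, the close Arabidopsis partner of CCA1, so the assignment between CCA1 and LHY is uncertain. CCA1a (Unigene0036436, 3143 nt) had 290 RPKM in NL replicate 1, 285 in replicate 2 and 337 in replicate 3, from 13167 reads in all. In L2 it had 39.0, 89.8 and 65.5 RPKM in replicates 1, 2 and 3, from 3755 reads. The lowest NL library was thus 3.18 times the highest L2 library, and L2 replicate 1 was the lowest of all 6. The mean fell from 304 ± 28.8 (SD, n = 3) to 64.7 ± 25.4 RPKM (SD, n = 3). On the log2(RPKM + 0.1) scale the change was -2.31 (standard error, SE, 0.30, with a limma adjusted p = 2.69e-04).

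CCA1b (Unigene0049229, 4279 nt) had 258, 266 and 356 RPKM in NL replicates 1, 2 and 3, from 17431 reads. In L2 it had 24.6, 60.9 and 37.1 RPKM, from 3227 reads. Its libraries took the order seen for CCA1a within L2, with replicate 1 lowest and replicate 2 highest, and the stages did not overlap. The mean fell 7.18-fold, from 293 ± 54.4 (SD, n = 3) to 40.9 ± 18.4 RPKM (SD, n = 3), a log2 change of -2.92 (SE 0.32, limma adjusted p = 1.40e-04). In NL the CCA1 genes stood at places 98 and 101 among the listed genes by mean RPKM, and in L2 at places 676 and 1154. As they share an annotation, reads that fit both sequences may have been divided between them, and the split is uncertain to that extent.

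RVE8 (Unigene0038151, 2474 nt, matched to REVEILLE 8 isoform X1 of Beta vulgaris), a clock activator in Arabidopsis, fell the most of the 5. Its RPKM was 80.5, 72.8 and 127 in NL replicates 1, 2 and 3, from 3250 reads. In L2 it was 4.40, 12.7 and 10.2, from 410 reads. Even the highest L2 library, replicate 2, was 5.74 times below the lowest NL library. The mean fell from 93.3 ± 29.2 (SD, n = 3) to 9.08 ± 4.24 RPKM (SD, n = 3), a log2 change of -3.43 (SE 0.40, limma adjusted p = 1.79e-04). Of the 4041 listed genes that were lower in L2, 1152 (28.5%) had a larger fall than RVE8, so its size was not unusual for this list.

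RVE6 (Unigene0045344, 2748 nt, matched to REVEILLE 6 isoform X1 of Beta vulgaris) is a relative of RVE8 with a similar role in Arabidopsis. The deposited table gives it the symbol RVE5, so its number in the family is uncertain. It was the least abundant member, with 19.4, 18.6 and 29.7 RPKM in NL replicates 1, 2 and 3, from 868 reads. In L2 it had 4.30, 4.45 and 5.64 RPKM, from 250 reads. The L2 libraries lay close together, with a coefficient of variation of 15.3% against 27.6% in NL, and the stages did not overlap. The mean fell 4.70-fold, from 22.5 ± 6.21 (SD, n = 3) to 4.80 ± 0.733 RPKM (SD, n = 3), a log2 change of -2.19 (SE 0.27, limma adjusted p = 2.12e-04).

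RVE1 (Unigene0049123, 2549 nt, matched to REVEILLE 1 isoform X1 of Ricinus communis), the output gene of the family in Arabidopsis, had 134, 125 and 170 RPKM in NL replicates 1, 2 and 3, from 5061 reads. In L2 it had 39.8, 36.2 and 26.0 RPKM, from 1684 reads. Here L2 replicate 1 was the highest and replicate 3 the lowest of the L2 libraries, unlike in the CCA1 genes and RVE8. The mean fell from 143 ± 23.7 (SD, n = 3) to 34.0 ± 7.15 RPKM (SD, n = 3), a log2 change of -2.08 (SE 0.21, limma adjusted p = 1.05e-04). This was the smallest fall of the 5, and 2342 (58.0%) of the lower genes fell further.

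The median log2 change of the 5 genes was -2.31, beside -2.36 over all listed genes that were lower in L2. Of the lower genes, 2075 fell further than CCA1a, 1526 further than CCA1b and 2213 further than RVE6. The 5 therefore lay within the bulk of the falling genes. TMM scaling in edgeR and the size factors of DESeq2 place L2 lower against NL by 0.85 and 1.08 on the log2 scale. Both were estimated from the listed genes alone, all called changed by the authors, although they assume mostly unchanged genes. They lower every gene in L2, so they cannot reverse a fall and leave fewer genes called higher. The share of listed genes called lower was 36.6% with TMM, 36.6% in edgeR with library totals and 36.4% in DESeq2, and the share called higher was 38.6% with TMM and 25.1% in DESeq2. Under TMM, the DESeq2 size factors, library totals only, the other pseudocounts, the filter on low values, the replicate block and the omission of each library, each of the 5 remained lower in L2 and past the threshold. Across these settings the log2 change ranged from -3.30 to -1.98 for CCA1a, from -3.91 to -2.61 for CCA1b, from -4.45 to -2.99 for RVE8, from -3.33 to -1.97 for RVE6 and from -3.14 to -1.90 for RVE1.

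The order of the genes by RPKM, which is per length, was the same in both stages, with CCA1a first, followed by CCA1b, RVE1, RVE8 and RVE6. In NL the ranges of the CCA1 genes overlapped, CCA1a being above CCA1b in 2 of 3 libraries. The ranges of RVE1 and RVE8 overlapped as well, though RVE1 was above RVE8 in each NL library. CCA1b was apart from RVE1, and RVE8 from RVE6. In L2 the ranges of CCA1a and CCA1b, of CCA1b and RVE1, and of RVE8 and RVE6 overlapped, and only RVE1 and RVE8 were apart among neighbours. In L2 replicate 1 RVE1 was above both CCA1 genes.

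The sum over the 5 genes averaged 856 ± 142 RPKM (SD, n = 3) for the NL libraries and 153 ± 46.6 RPKM for those of L2, 5.58-fold less. The CCA1 pair held 70.0 ± 1.92% (SD, n = 3) of this sum in NL and 67.2 ± 9.19% in L2. RVE8 held 10.3%, 9.48% and 12.4% in NL replicates 1, 2 and 3, against 3.93%, 6.22% and 7.04% in L2. Its share was thus lower in each L2 library than in any NL library. RVE1 held 16.7 ± 0.454% in NL, and in L2 it held 35.5% in replicate 1 but 17.7% and 18.0% in replicates 2 and 3. The higher mean share of RVE1 in L2, 23.8%, therefore came mostly from replicate 1. RVE6 held 2.60 ± 0.270% in NL and 3.31 ± 0.975% in L2, a difference within the spread of the libraries.

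**Figure D2:**
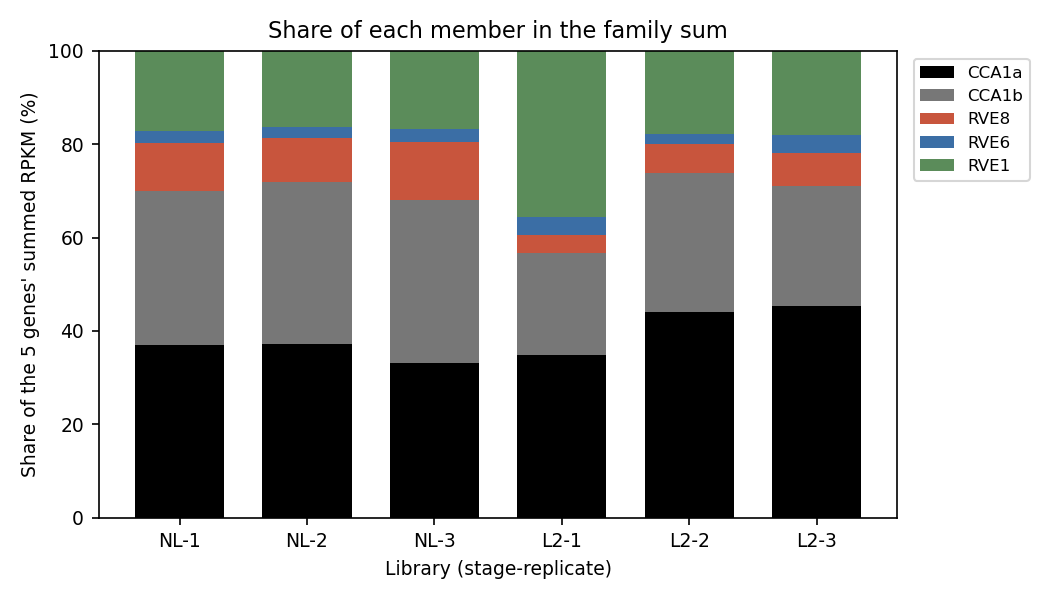
Share of each gene in the summed RPKM of the 5 genes, in percent, for each library. CCA1a and CCA1b together make up 56.7% to 73.9% of every bar, the RVE8 band is narrower in each L2 library, and the RVE1 band is widest in L2 replicate 1 (35.5%).

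A ratio between genes of 1 library does not depend on how that library is scaled, and the list was not chosen on such ratios. All 10 pairs were compared, by an exact permutation test (two-sided) of the log2 ratio, computed from RPKM + 0.1. With 3 libraries against 3 the smallest p this test allows is 0.1, or 0.2 after Benjamini-Hochberg adjustment over the 10 pairs, so no pair could pass 0.05. Changes are therefore given by their size and by whether the libraries of the stages overlapped. The ranges did not overlap in 5 of the 10 pairs. The pairs share genes and are not independent. How often such ratios separate among pairs of other listed genes was not computed, so this count is a description only.

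The ratio of CCA1a to CCA1b was 1.12, 1.07 and 0.947 in NL replicates 1, 2 and 3, and 1.59, 1.47 and 1.76 in L2. CCA1a was thus close to CCA1b in NL and above it in each L2 library, a change in the log2 ratio of 0.62 (SE 0.10, exact permutation p = 0.1, adjusted p = 0.2). The ratio of CCA1a to RVE8 was 3.60, 3.92 and 2.66 in NL and 8.86, 7.08 and 6.44 in L2. This ratio was higher in each L2 library, with a change of 1.13 (SE 0.21, exact permutation p = 0.1, adjusted p = 0.2). These changes ranged from 0.55 to 0.68 and from 0.96 to 1.24 when each library was left out in turn.

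RVE8 was also lower against its relatives in L2. Its ratio to RVE6 was 4.16, 3.92 and 4.27 in NL and 1.02, 2.85 and 1.80 in L2. The NL libraries were nearly alike in this ratio and the L2 libraries were spread out below them, with a change of -1.25 (SE 0.42, exact permutation p = 0.1, adjusted p = 0.2). Its ratio to RVE1 was 0.600, 0.583 and 0.746 in NL and 0.111, 0.351 and 0.391 in L2, a change of -1.35 (SE 0.59, exact permutation p = 0.1, adjusted p = 0.2). L2 replicate 1 was the lowest in both ratios, and without it the changes were -0.87 and -0.78.

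The ratio of CCA1b to RVE1 was 1.92, 2.13 and 2.10 in NL and 0.618, 1.68 and 1.43 in L2. The libraries did not overlap, but the change of -0.84 (SE 0.45, exact permutation p = 0.1, adjusted p = 0.2) was reduced to -0.40 without L2 replicate 1. CCA1b to RVE8 changed by 0.51 (SE 0.21) and CCA1b to RVE6 by -0.74 (SE 0.40), both with overlapping libraries. Against one another CCA1a, RVE6 and RVE1 kept ratios that overlapped between the stages. The changes were -0.12 (SE 0.37) for CCA1a to RVE6, -0.23 (SE 0.45) for CCA1a to RVE1 and -0.11 (SE 0.32) for RVE6 to RVE1. Without L2 replicate 1 they were 0.13, 0.22 and 0.09, so these data give no direction for the 3 pairs.

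**Figure D3:**
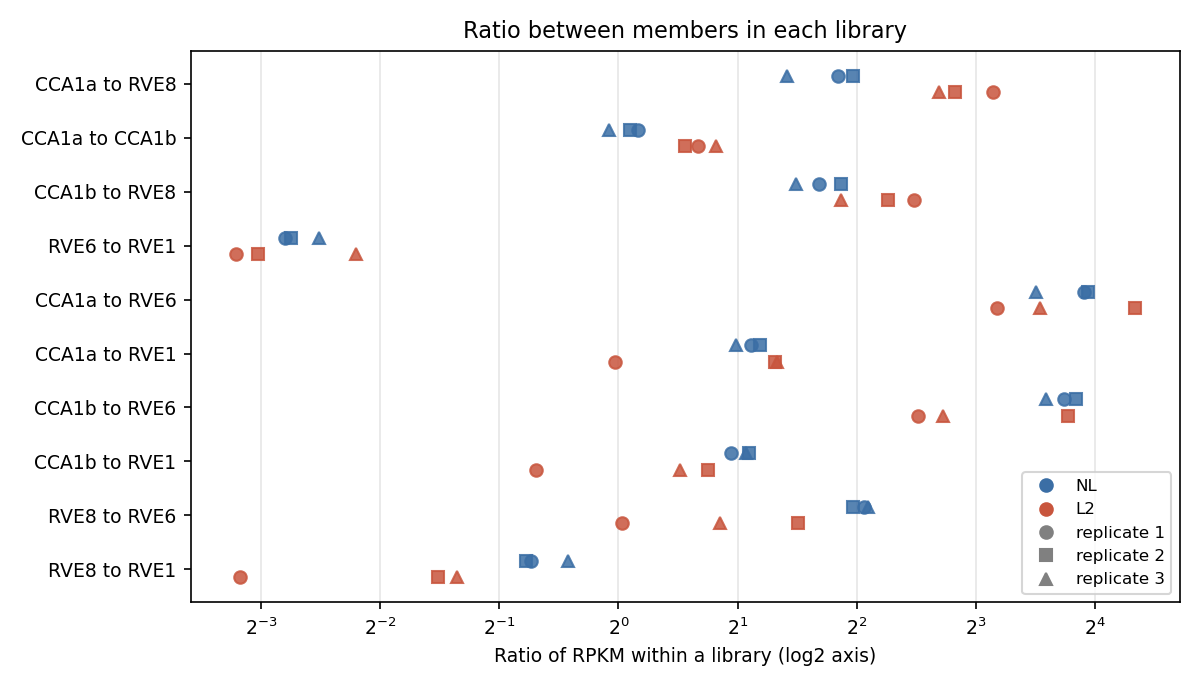
Ratio of RPKM between 2 genes of the family within each library, on a log2 axis, for the 10 pairs. Colour gives the stage and symbol the replicate. Blue and red points are apart for CCA1a to RVE8, CCA1a to CCA1b, CCA1b to RVE1, RVE8 to RVE6 and RVE8 to RVE1, and they overlap for the other 5 pairs.

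Within a stage the libraries were ordered alike for several of the 5 genes. NL replicate 3 was the highest NL library for all 5 genes, while it was the highest for 35.3% of the 10701 listed genes with a mean of at least 1 RPKM. L2 replicate 1, the most deeply sequenced library, was the lowest L2 library for 4 of the 5, against 42.7% of those genes. The order of replicate 1 below 3 below 2 in L2 was shared by CCA1a, CCA1b and RVE8, and by 18.5% of those genes. RVE6 and RVE1 did not follow it. Among the 19 other listed clock genes described below, NL replicate 3 was the highest NL library for 12 (63.2%). L2 replicate 1 was the lowest L2 library for 12 (63.2%) of them, and 6 (31.6%) had the order of replicate 1 below 3 below 2. These library orders were thus not particular to the 5 genes. The coefficient of variation within L2 was 39.2% for CCA1a, 45.1% for CCA1b and 46.7% for RVE8, above the median of 26.8% over listed genes, and 21.0% for RVE1. What set these library differences was not tested.

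Over the 6 libraries, Pearson's r of log2(RPKM + 0.1) was 0.997 between CCA1a and CCA1b and 0.995 between CCA1a and RVE8. It was 0.952 between CCA1a and RVE6 and 0.923 between CCA1a and RVE1. Each r is a description over 6 libraries that fall into 2 stages, and genes called between the stages correlate by that alone. Compared with 8350 annotated genes, CCA1b stood at place 21 in likeness to CCA1a. The most similar to CCA1a were Unigene0026033 (kinase superfamily protein), Unigene0043868 (lycopene epsilon cyclase, an enzyme of carotenoid synthesis) and Unigene0025996 (chlorophyll a-b binding protein 8), each with r of at least 0.999. For CCA1b they were Unigene0037335 (magnesium transporter MRS2-I-like), Unigene0049676 (LNK2) and Unigene0053080 (lysophospholipid acyltransferase LPEAT2). For RVE8 they were Unigene0040043 (O-glucosyltransferase rumi homolog), Unigene0029792 (a fatty acid-binding-like protein) and Unigene0035187 (NAC transcription factor 29). For RVE6 they were Unigene0051947 (NRT1/PTR FAMILY 1.2), Unigene0028693 (stress enhanced protein 2) and Unigene0009448 (expressed protein), and for RVE1 Unigene0039991 (CAAX protease), Unigene0043560 (zeaxanthin epoxidase) and Unigene0019350 (superoxide dismutase).

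The partners of these genes in the clock were taken by words in the annotations, in 4 lists of 19 listed genes. Of these, 16 were lower and 3 were higher in L2 past an adjusted p of 0.05 in limma, with a median log2 change of -2.34, beside 36.3% lower, 63% higher and a median of 1.43 over all listed genes. No other listed gene was annotated as LHY or REVEILLE. Unlisted genes were not analysed here.

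All 4 listed LNK genes, whose products are co-activators of RVE8 in Arabidopsis, were lower in L2. LNK4 (Unigene0032613) fell from 45.3 ± 14.7 (SD, n = 3) to 4.20 ± 2.61 RPKM, a log2 change of -3.51 that was close to that of RVE8. LNK2 (Unigene0049676), at 244 ± 31.3 RPKM (SD, n = 3) in NL, changed by -2.60, and the LNK1 unigenes Unigene0050741 and Unigene0051337 by -1.92 and -1.46.

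Of the 5 listed pseudo-response regulators, which repress CCA1 in Arabidopsis, 4 were lower and 1 was higher in L2. APRR5 (Unigene0045107) fell from 123 ± 14.0 (SD, n = 3) to 5.23 ± 2.52 RPKM, a log2 change of -4.67 (SE 0.39, limma adjusted p = 6.11e-05). This was a larger fall than that of any of the 5 family genes. Other APRR5 unigenes changed by -3.08 (Unigene0048532) and, on 29 reads in NL and 3 in L2, by a 13.5-fold lower ratio of reads (Unigene0048533, 95% exact interval 4.20 to 69.5). APRR9 (Unigene0050201) fell from 165 ± 50.4 to 37.7 ± 26.3 RPKM (SD, n = 3). The opposite direction was that of APRR1 (Unigene0026108), the counterpart of TOC1, a target of CCA1 repression and of RVE8 activation in Arabidopsis. It had 3 reads in NL, all in replicate 1, and 148 reads in L2, where its RPKM was 7.80 ± 2.67 (SD, n = 3). The ratio of reads per library total was 35.2 (95% exact interval 11.8 to 173).

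The evening complex, formed by ELF3, ELF4 and LUX (also named PCL1) in Arabidopsis, had 7 listed genes, of which 6 were lower in L2. ELF4-like (Unigene0022870) fell from 48.6 ± 1.71 (SD, n = 3) to 4.73 ± 1.57 RPKM, ELF4-LIKE 4 (Unigene0024454) from 48.8 ± 7.01 to 19.7 ± 3.11, and ELF3 (Unigene0039817) from 8.11 ± 2.13 to 1.89 ± 0.713. A PCL1-like unigene (Unigene0047168) had 29 reads in NL and none in L2, so that it was at least 13.5-fold lower when L2 is set to a floor of 3 reads in all. Another PCL1 unigene (Unigene0021827) rose from 1.21 ± 0.373 to 7.49 ± 2.58 RPKM (SD, n = 3), a log2 change of 2.52. The remaining PCL1 unigenes, among them the most abundant (30.5 RPKM in NL and 12.4 in L2), were lower. Unigene0021827 was thus the only PCL1 unigene to rise.

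In the group of GIGANTEA and ZEITLUPE, which control the stability of clock proteins, FKF1 (Unigene0045624) fell from 109 ± 22.5 (SD, n = 3) to 14.1 ± 7.43 RPKM, a log2 change of -3.05. GIGANTEA (Unigene0050242) had only 18 reads in NL and 2 in L2, a 12.6-fold lower ratio of reads (95% exact interval 3.02 to 112). ZEITLUPE (Unigene0038201) was at 4.22 ± 1.07 in NL and 12.1 ± 1.72 RPKM in L2 (SD, n = 3), a log2 change of 1.51. It passed in limma but not with TMM in edgeR (adjusted p = 0.0667) or in DESeq2 (adjusted p = 0.257). The factors of these tools came from the listed genes alone and lower L2. ZEITLUPE had 3.51 to 5.45 RPKM in the NL libraries and 10.1 to 13.1 in those of L2. These ranges did not overlap, but the listed genes were chosen on these libraries. The share of them that lay apart in this direction was not computed.

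**Figure D4:**
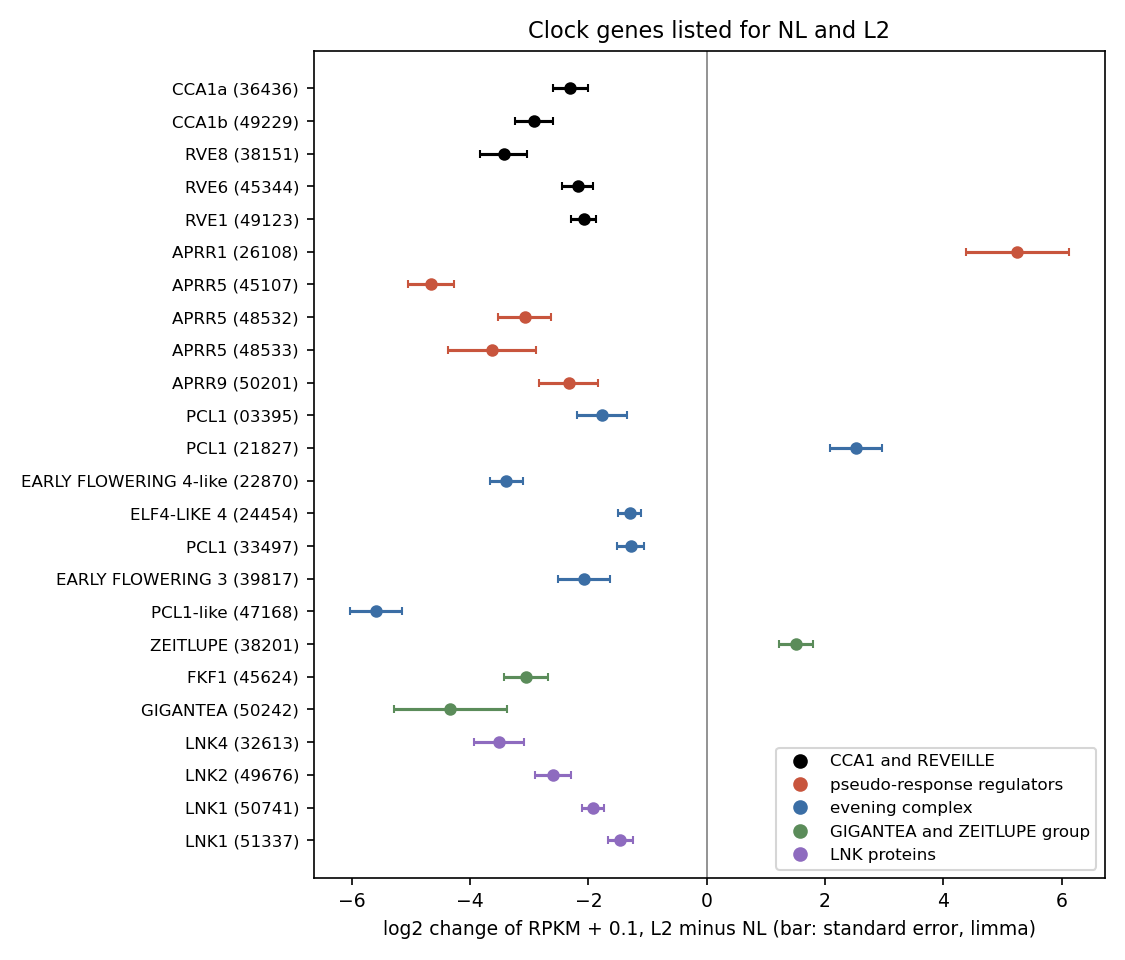
Log2 change of RPKM + 0.1 in L2 against NL for the 5 family genes (black) and the 19 other listed clock genes, coloured by list. Bars are the standard error from limma and the last digits of each unigene stand in brackets. Only APRR1, 1 PCL1 unigene and ZEITLUPE lie to the right of 0. The value of PCL1-like, with no read in L2, depends on the added 0.1. So do those of genes with no read in some libraries, such as GIGANTEA and APRR1.

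Outputs and inputs of the clock were listed as well, and their counts in limma stand beside 36.3% lower and 63% higher over all listed genes. Of 4 cycling Dof factors, which repress CONSTANS in Arabidopsis, 3 were lower and 1 was higher in L2, with cyclic dof factor 1 (Unigene0031426) changing from 85.2 ± 20.6 to 3.74 ± 1.76 RPKM (SD, n = 3). Of 11 CONSTANS-like genes 8 were lower and 3 were higher. All 7 listed genes for COP1, SPA, PIF or HY5 proteins, which carry light signals, were lower, as were 6 of 8 photoreceptor genes. The other photoreceptor genes were higher in limma but were not called with TMM or in DESeq2, both of which use factors that lower L2. For listed genes with a related MYB domain (DIVARICATA, RADIALIS and MYB1R1 types) the counts in limma were 4 lower and 7 higher of 11, a split close to that of all listed genes. With TMM 4 of the 7 were still called higher, and in DESeq2 3. Protochlorophyllide reductase, a chlorophyll enzyme whose gene RVE1 activates in Arabidopsis, had 2 listed genes, both lower. No listed gene was annotated as YUCCA, gibberellin 3-oxidase or casein kinase 2, which act downstream of RVE1 or on CCA1 in Arabidopsis.

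Genes for light-harvesting chlorophyll a-b binding proteins, the targets through which CCA1 was first known in Arabidopsis, had 21 listed members, of which 19 were lower, none was higher and 2 did not pass. Together with the small subunit of RuBisCO they form a list of 23 markers of photosynthetic tissue, of which 20 were lower in L2. Their summed RPKM was 6301 to 7816 in NL and 825 to 1894 in L2. The mean of this sum fell 5.20-fold, beside 5.58-fold for the family sum. The 21 light-harvesting genes alone fell 3.83-fold in sum, so the size of the fall depended on including RuBisCO. The RuBisCO unigene Unigene0047243 made up 40.3% of the marker sum in NL and 19.3% in L2. Most abundant in NL was a RuBisCO small subunit (Unigene0047243), at 2756 RPKM against 254 in L2, and most abundant in L2 was a chlorophyll a-b binding protein (Unigene0032585), at 426 RPKM against 946 in NL. Of the 23 genes, 2 had no read in L2. A fall of this size was not particular to the photosynthetic markers. In sum, the pseudo-response regulators fell 5.92-fold, the LNK genes 4.69-fold and the CONSTANS-like genes 4.52-fold, while the evening complex fell 3.09-fold. Over the same libraries 10 of 11 floral organ markers and 9 of 10 markers of dividing cells were higher in L2 in limma, beside 63% of all listed genes. With TMM in edgeR these counts were 7 and 7, and in DESeq2 6 and 6, both with factors that lower L2. Both lists were matched by words in the annotation. The floral list thus also took in AGAMOUS-like genes such as AGL12 and AGL19, and AGL19 was its lower gene. The summed RPKM of the lists rose from between 18.7 and 32.0 to between 180 and 273, and from between 68.5 and 92.0 to between 178 and 339. In NL, 2 floral organ markers, among them SEPALLATA 1 (Unigene0047380), had no read. Transcripts with floral organ annotations were thus abundant in the L2 tissue, which the labels give as thorn seat of the stem.

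In L2 the photosynthetic markers had the library order of the CCA1 genes, and in NL they too were highest in replicate 3. As a percentage of the NL mean their sum was 92.2, 93.4 and 114 in NL replicates 1, 2 and 3, and 12.1, 27.7 and 17.9 in L2. Per 1000 RPKM of these markers, CCA1a had 43.1 to 46.0 RPKM in NL and 47.3 to 53.4 in L2, and CCA1b had 40.9 to 45.6 and 29.8 to 32.1. Set against the markers, CCA1a was thus slightly higher in each L2 library, while CCA1b was lower. RVE8 had 11.4 to 16.2 in NL and 5.33 to 8.29 in L2, again without overlap. RVE6 (2.91 to 3.80 and 2.35 to 5.21) and RVE1 (19.6 to 21.7 and 19.1 to 48.2) overlapped between the stages. How many listed genes lay apart between the stages on this scale was not computed, so these separations are a description only.

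In limma on values relative to the summed markers, a comparison added after the data had been seen, RVE8 was the only 1 of the 5 to pass, with a log2 change of -0.98 (adjusted p = 0.0252 from limma). Of all listed genes 6.43% were lower and 69.4% higher on this scale. CCA1b changed by -0.47, CCA1a by 0.15, RVE6 by 0.27 and RVE1 by 0.37, with adjusted p values in limma between 0.204 and 0.696. Relative to the light-harvesting genes alone RVE8 (-1.42) and CCA1b (-0.91) were lower and passed, and relative to the RuBisCO small subunits no gene was lower, RVE8 changed by 0.01, and CCA1a (1.14), RVE6 (1.26) and RVE1 (1.37) were higher and passed. The markers were themselves listed as changed, and light-harvesting genes are known targets of CCA1 in Arabidopsis, so they are no neutral reference. The part of tissue composition in the falls of the 5 genes was not tested.

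**Figure D5:**
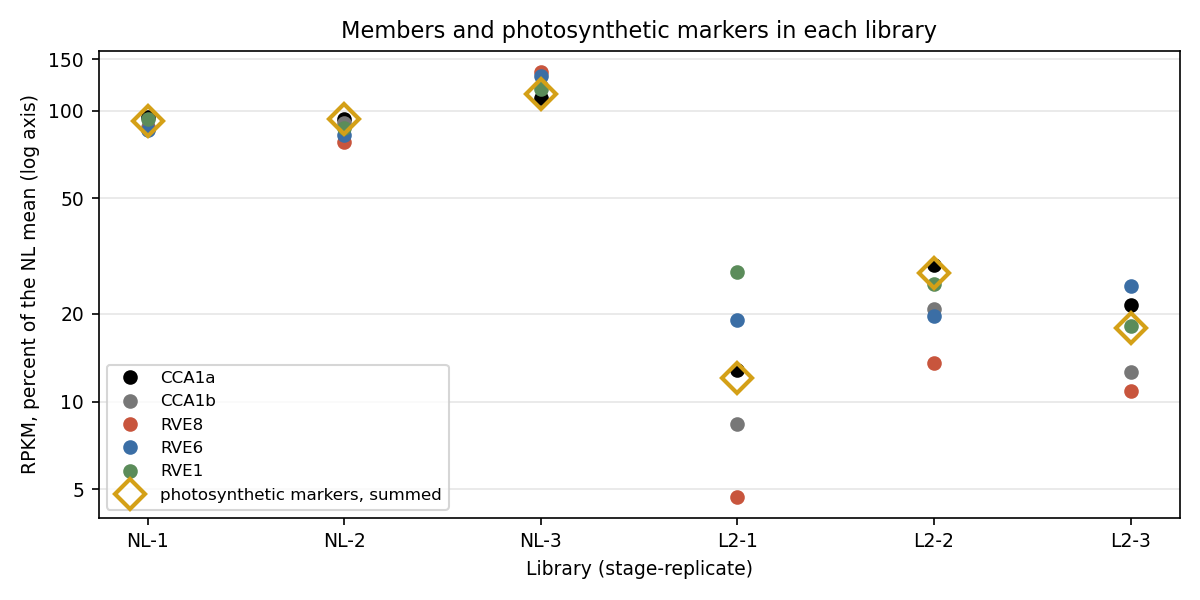
RPKM of each gene and the summed RPKM of 23 photosynthetic markers (open diamonds) in each library, as percent of the NL mean on a log axis. CCA1a lies close to the markers in every library, and RVE8 and CCA1b lie below them in each L2 library. RVE1 and RVE6 lie above them in L2 replicate 1. In L2 replicate 3 RVE6 lies above them and RVE1 close to them.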

How the data were processed

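RNA of pitaya (labelled Selenicereus undatus) was sequenced at 4 stages, and the table of NL against L2, with 3 libraries each, was used. The authors assembled reads with Trinity and mapped them with Bowtie2, with the counting tool and test not given in the sources used here. The authors deposited RPKM per library and mean read counts by stage. These deposited means were given the unit of expected counts only because a mean over 3 libraries need not be whole. Deposited columns with the authors' own log2 ratio, p-value and FDR were not used. Their table is limited to genes that passed an FDR of 0.05 and changed by at least 1 on the log2 scale.

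Reads per library were recovered from RPKM and mean counts. All 59302 values above 0 came out whole within 0.05. In edgeR with library totals, 11051 of 11051 genes were called on the recovered reads. The authors had already called these genes on the same libraries, so this count is no independent check of the recovery. The NL libraries held 3860701 to 5269237 reads and the L2 libraries 5803177 to 7533457, so that 1 read on 1 kb equals 0.190 to 0.259 and 0.133 to 0.172 RPKM. The listed genes took 46.0% to 48.6% of reads in NL and 43.9% to 44.2% in L2.

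Stages were compared with limma 3.58.1 (R 4.3.3, trend, two-sided) on log2(RPKM + 0.1), adjusted by Benjamini-Hochberg over all 11051 genes. The added 0.1 slightly understates changes of low genes with reads in every library. Where some libraries had no read, as for GIGANTEA and APRR1, the change depends on the added 0.1 and can be overstated. Ratios within a library were compared by an exact permutation test. Alternatives were pseudocounts of 1 and 0.01, at least 1 RPKM in at least 3 libraries, a replicate block, each library left out, and edgeR 4.0.16 and DESeq2 1.42.0 on recovered reads. Fits were tested on simulated data. Exact 95% intervals and floors cover counting error only. Genes named are the 5 members, up to 4 genes per clock list with the largest changes plus the most abundant, and the 3 most similar to each member. Clock genes of other lists were chosen after their values were seen. Members and lists were chosen with earlier results of these data known. Python 3.11.15 was used for the other steps.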

Additional observations from a re-analysis of the deposited data

How the results depend on the processing

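Each of the 5 genes kept its direction and its call under all 13 alternatives. TMM and DESeq2 could not have reversed a fall, as their factors came from the listed genes alone and lower L2. Limits are the choice of listed genes on these libraries, 3 libraries per stage, the unstated hour of harvest and the joint change of light and buds. The count of listed genes higher in L2 fell from 6967 to 4268 with TMM in edgeR and to 2779 in DESeq2 (4041 and 4021 lower, against 4007), whose factors assume mostly unchanged genes. Those higher made up 63% of listed genes in limma, 38.6% in edgeR and 25.1% in DESeq2.

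The ratio of RVE6 to RVE1 changed by 0.052 with a pseudocount of 1, against -0.11. When each library was left out, the changes ranged from -0.44 to 0.13 for CCA1a to RVE6, from -0.46 to 0.22 for CCA1a to RVE1 and from -0.41 to 0.091 for RVE6 to RVE1. The positive values were those without L2 replicate 1. The cause was not tested.

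Relative to the summed photosynthetic markers, chosen after seeing the data, the log2 changes were 0.15 (CCA1a), -0.47 (CCA1b), 0.27 (RVE6) and 0.37 (RVE1). Relative to light-harvesting proteins they were -0.29 (CCA1a), -0.17 (RVE6) and -0.062 (RVE1). Relative to RuBisCO small subunits they were 1.14 (CCA1a), 0.52 (CCA1b), 0.014 (RVE8), 1.26 (RVE6) and 1.37 (RVE1). RVE8 changed by -0.98 relative to the summed markers and by -1.42 relative to light-harvesting proteins, and CCA1b by -0.91 relative to the latter. Dividing by markers that fell raises the log2 change of every gene by the same amount for a given reference.

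Libraries of the same number correlated with r of 0.0370, 0.0218 and 0.0602 in their deviations from the stage means. Each was the highest for its number, but all were small, and whether the numbers mark pairs was not tested. The numbers were not taken as pairs in the main fit. With a replicate block 3992 genes were lower and 6902 higher in L2, and the 5 genes kept their calls (CCA1a -2.31, CCA1b -2.92, RVE8 -3.43, RVE6 -2.19, RVE1 -2.08).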
